A study of Homo sapiens with 8 samples.

Results

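The 4 HOX gene clusters were examined for peaks of methylated DNA and of the protein ORCA in U2OS cells, an established line derived from a human osteosarcoma. Members were all deposited peaks that shared at least 1 bp with a cluster as bounded in hg19: HOXA at chr7:27130000-27260000 (130 kb), HOXB at chr17:46600000-46815000 (215 kb), HOXC at chr12:54330000-54455000 (125 kb) and HOXD at chr2:176950000-177060000 (110 kb). Of 96832 peaks on chromosomes 1 to 22 and X in 4 lists, 149 were members: 125 of 74497 MeDIP peaks, 3 of 10666 early G1 ORCA peaks, 21 of 10341 mid G1 ORCA peaks and 0 of 1328 late G1 ORCA peaks. ORCA had been mapped by ChIP-seq in cells synchronized at early, mid and late G1. DNA methylation had been mapped by MeDIP-seq, in which fragments with methylated cytosine are pulled down, in cells with no stage in their labels. Each of these 4 samples was a group of 1 with an input of its own, and the inputs were not analysed here. With 1 sample per group no difference could be set against replicate error, no test was run, and the 3 stages are set side by side. All peak coordinates are hg19. How deeply the libraries were sequenced is unknown here.

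HOX genes encode homeodomain transcription factors that specify position along the body axis of the embryo. They stand in 4 clusters, and their order along the chromosome follows the order in which they are used along the axis. The clusters are rich in CpG, are known targets of Polycomb repression where they are silent, and gain DNA methylation in many tumours. ORCA, also named LRWD1, binds the origin recognition complex and is known to sit at repressive chromatin. In the RefSeq annotation of GRCh38.p14 the HOXA cluster has HOXA13 at its high-coordinate end, and the order from low to high coordinate runs from HOXB1 to HOXB13 (10 genes) and, the other way round, from HOXC13 to the HOXC4, HOXC5 and HOXC6 genes (9 genes) and from HOXD13 to HOXD1 (9 genes). HOXB13 is known to lie apart from the other HOXB genes. An hg19 annotation was not used here, so no peak was assigned to a gene.

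MeDIP reads out methylated CpG, so the CG content of the sequences 250 bases upstream of HOX starts is shown first. RefSeq (GRCh38.p14) held such a sequence for 20 of the 39 HOX genes: 9 of HOXA, 8 of HOXD, 2 of HOXC and 1 of HOXB. The pooled values thus describe mainly HOXA and HOXD. For each gene the start with the most CG was taken. CG, which reads the same on both strands and cannot overlap itself, occurred in all 20, with a median of 22 per 250 bases and a range from 4 (HOXD4) to 40 (HOXA13). Over all 34943 starts in the table, 93.9% held at least 1 CG, the median was 11, and 28.0% held 22 or more. That choice favours the HOX genes, since 2 of them had more than 1 start. Over all 27 HOX starts the median was 19, the lowest count was 0, and 26 held at least 1 CG. The upstream sequence with the most CG in each cluster is printed 5′ to 3′ with each CG in capitals: HOXA13 (chr7:27200092-27200341, minus strand) with 40, HOXB1 (chr17:48531012-48531261, minus strand), the one HOXB entry, with 7, HOXC4 (chr12:54016638-54016887, plus strand) with 14, tied with HOXC5, and HOXD1 (chr2:176188418-176188667, plus strand) with 31. These 4 positions are GRCh38.p14 and cannot be set against the hg19 peaks. HOXC4 and HOXC5 had the same CG count and the same percent of G and C (50.8%), and whether they share 1 start was not checked.
HOXA13: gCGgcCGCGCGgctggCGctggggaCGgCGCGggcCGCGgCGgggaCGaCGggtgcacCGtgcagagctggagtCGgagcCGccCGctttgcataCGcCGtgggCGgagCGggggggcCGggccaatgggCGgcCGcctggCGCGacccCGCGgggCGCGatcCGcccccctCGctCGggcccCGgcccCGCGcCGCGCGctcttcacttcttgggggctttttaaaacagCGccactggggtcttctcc
HOXB1: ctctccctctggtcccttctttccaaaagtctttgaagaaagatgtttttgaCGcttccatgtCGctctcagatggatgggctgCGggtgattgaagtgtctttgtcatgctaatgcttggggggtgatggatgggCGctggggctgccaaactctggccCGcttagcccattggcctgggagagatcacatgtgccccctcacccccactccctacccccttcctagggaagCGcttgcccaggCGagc
HOXC4: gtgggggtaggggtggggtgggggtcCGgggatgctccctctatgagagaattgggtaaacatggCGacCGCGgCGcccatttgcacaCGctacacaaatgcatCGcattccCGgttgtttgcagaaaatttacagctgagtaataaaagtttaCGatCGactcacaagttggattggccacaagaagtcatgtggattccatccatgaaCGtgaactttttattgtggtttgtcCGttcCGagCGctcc
HOXD1: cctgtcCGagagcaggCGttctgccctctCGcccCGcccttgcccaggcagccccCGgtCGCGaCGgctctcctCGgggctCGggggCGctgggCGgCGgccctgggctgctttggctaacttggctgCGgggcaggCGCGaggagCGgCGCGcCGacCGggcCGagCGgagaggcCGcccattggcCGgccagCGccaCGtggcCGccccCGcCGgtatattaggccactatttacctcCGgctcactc
The CG pairs of HOXA13 and HOXD1 are spread over most of the sequence, while HOXB1 has few. Whether these stretches were methylated in U2OS cells cannot be read from the peak lists without gene positions in hg19.

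All 4 HOX clusters were densely covered by MeDIP peaks. HOXA held 35 MeDIP peaks, which covered 51.0% of its bases (66.3 kb). HOXD held 25, which covered 44.0% (48.4 kb). HOXC held 28, which covered 39.9% (49.9 kb), and HOXB held 37, which covered 32.1% (68.96 kb). HOXA thus had the highest and HOXB the lowest coverage, 1.59 times apart. In peaks per 10 kb the order was HOXA with 2.69, HOXD with 2.27, HOXC with 2.24 and HOXB with 1.72. Together the clusters held 2.16 MeDIP peaks per 10 kb and were covered to 40.3%. Wide peaks made up much of this: with the widest 5% of the list left out, coverage was 32.8% in HOXA, 24.8% in HOXD, 19.99% in HOXC and 17.5% in HOXB, in the same order.

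Per length, the surroundings were covered far less by MeDIP peaks. In the 1 Mb on either side, pooled, coverage was 2.22% around HOXA, 4.63% around HOXB, 3.67% around HOXC and 0.853% around HOXD. Coverage in the cluster was therefore 22.99 times that of its flanks for HOXA, 6.93 times for HOXB, 10.9 times for HOXC and 51.6 times for HOXD. The high ratio of HOXD came with nearly empty flanks, which held 11 MeDIP peaks in 2 Mb, against 33 around HOXA, 69 around HOXC and 83 around HOXB. The HOXD ratio also varied most with the choice of flank: it was 37.6 against the low-coordinate side, 82.2 against the high-coordinate side and 27.2 with flanks of 0.5 Mb.

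**Figure D1:**
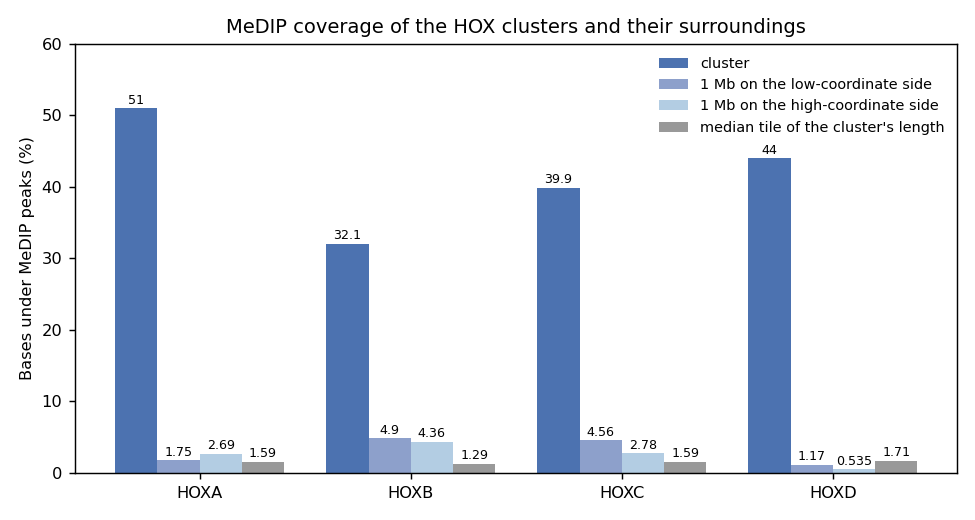
Percent of bases under MeDIP peaks (vertical axis) in each HOX cluster, in the 1 Mb on its low-coordinate and high-coordinate sides, and in the median tile of the cluster's length elsewhere in the genome. The 4 clusters lie between 32.1% and 51.0%, and each of their flanks lies below 5%.

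As a background, chromosomes 1 to 22 and X were cut into tiles of each cluster's length, keeping tiles with at least 1 peak of any list and leaving out those that touched a HOX cluster. The median tile was covered by MeDIP peaks to 1.59% at the length of HOXA, 1.29% at that of HOXB, 1.59% at that of HOXC and 1.71% at that of HOXD. Coverage at or above that of HOXA was found in 46 of 13831 tiles (0.333%). For HOXB it was 133 of 9792 tiles (1.36%), for HOXC 133 of 14274 (0.932%) and for HOXD 121 of 15489 (0.781%). By number of MeDIP peaks the clusters were less rare. At least as many peaks were found in 208 of 13831 tiles for HOXA and 378 of 9792 for HOXB. For HOXC it was 388 of 14274 tiles and for HOXD 457 of 15489. The tiles lie on a fixed grid, whereas the cluster bounds were drawn around the genes, which favours the clusters.

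Coverage fell off at the bounds of the clusters, with one strongly covered neighbour each for HOXA and HOXD. Of the 40 bins of 50 kb in the flanks of each cluster, none reached the coverage of the cluster itself. The 50 kb next to HOXA on the high-coordinate side, beyond the HOXA13 end, was covered to 31.0%, and the 50 kb on the other side to 3.37%. The 50 kb next to HOXD on the low-coordinate side, beyond the HOXD13 end, was covered to 23.4%, and the other side to 1.44%. In both clusters the covered neighbour thus lay on the side of the genes with the highest numbers. In GRCh38.p14 the genes next to HOXA13 and HOXD13 include EVX1 and EVX2, which encode homeodomain factors as well. Beside HOXB the adjacent bins were covered to 3.86% and 13.8%, and beside HOXC to 5.41% and 13.9%. No MeDIP peak lay in 22 of 40 flanking bins of HOXA and in 34 of 40 of HOXD, against 12 for HOXB and 11 for HOXC.

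**Figure D2:**
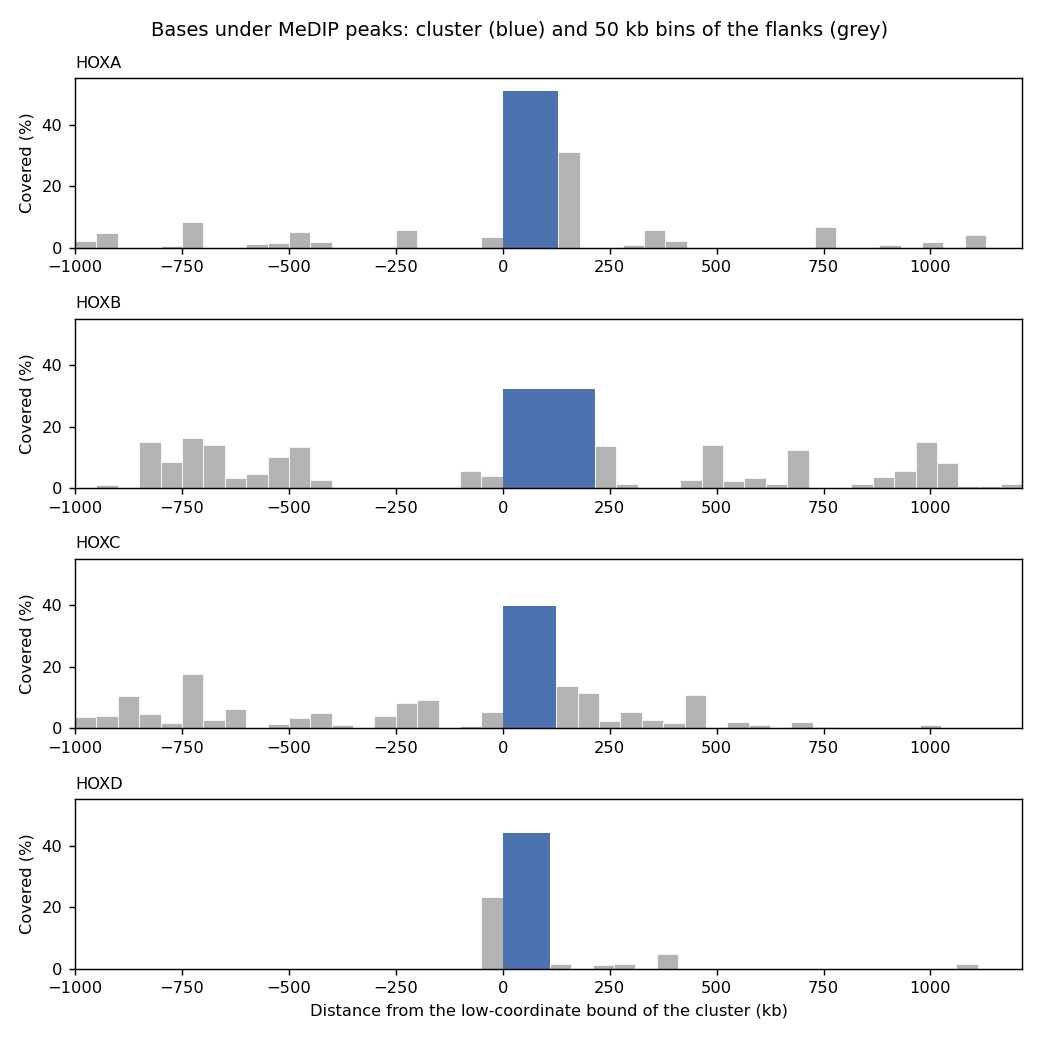
Percent of bases under MeDIP peaks (vertical axes) in each HOX cluster (blue, drawn at its length) and in 50 kb bins of the 1 Mb on either side (grey), against the distance in kb from the low-coordinate bound. The cluster is the highest bar in each panel, and the bins next to HOXA (31.0%) and HOXD (23.4%) are the highest of their flanks.

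The MeDIP peaks of the clusters had high scores within their list and were wide. The score is the peak caller's own, as deposited, and was compared within the MeDIP list alone. The median score was 1168.59 in HOXA, 1293 in HOXB, 1087.07 in HOXC and 1358.03 in HOXD, against 187.4 over the whole list. The cluster medians lay within 1.25 times of each other. In the flanks the medians were 275.27 around HOXA, 180.23 around both HOXB and HOXC, and 345.3 around HOXD. Scores within a cluster ranged widely, from 65.55 to 3215.74 in HOXA, 88.37 to 3100 in HOXB, 51.01 to 3113.68 in HOXC and 83.16 to 3100 in HOXD. The median width was 1646 bp in HOXA, 1503 in HOXB, 1635.5 in HOXC and 1627 in HOXD, against 832 bp over the list.

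A score of 3100 was shared by 5259 peaks of the MeDIP list, and 7.38% of the list reached it or more. In the clusters 34 of 125 peaks did so (27.2%, 95% Wilson interval 20.2 to 35.6), and in the flanks 22 of 196 (11.2%, interval 7.53 to 16.4). Such intervals allow for counting error alone, and peaks beside each other are not independent. By cluster the number was 8 of 35 in HOXA, 11 of 37 in HOXB, 6 of 28 in HOXC and 9 of 25 in HOXD. In the flanks it was 7 of 33 around HOXA, 12 of 83 around HOXB, 1 of 69 around HOXC and 2 of 11 around HOXD. For HOXA the shares inside (22.9%) and in the flanks (21.2%) were thus nearly equal. Only the flanks of HOXC (1.45%) lay below the pooled share of the flanks, while those of HOXB (14.5%) lay above it.

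**Figure D3:**
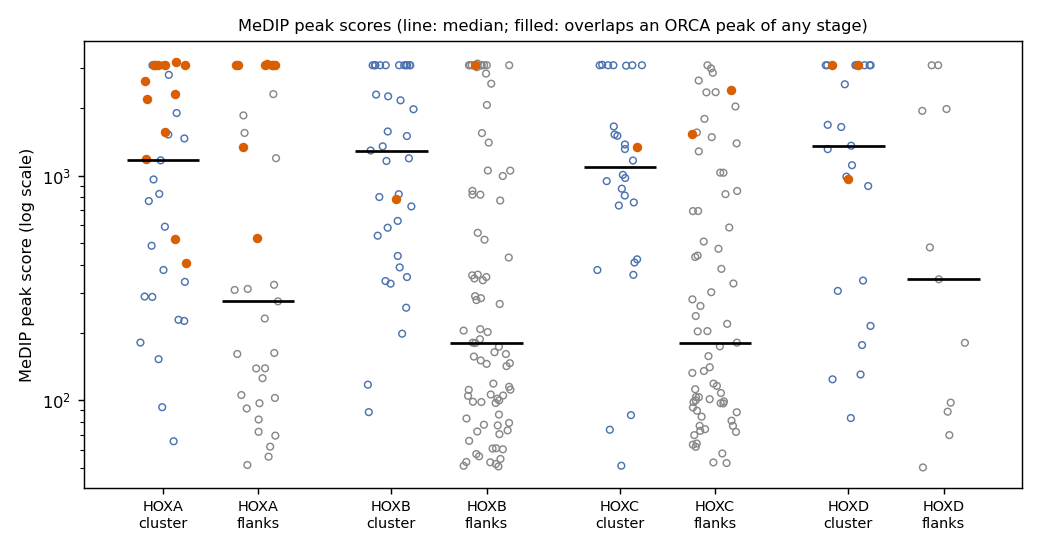
Score of each MeDIP peak (vertical axis, log scale) in the 4 HOX clusters and in their flanks of 1 Mb on either side; lines mark medians and filled points overlap an ORCA peak of any stage. The cluster medians lie between 1087.07 and 1358.03 and the flank medians between 180.23 and 345.3.

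The highest-scoring MeDIP peak of HOXA, with 3215.74, lay at chr7:27252111-27254339 near the high-coordinate bound. It was followed by peaks of score 3100 at chr7:27145607-27148934 and chr7:27161328-27164622, and the widest HOXA peak, of 4985 bp, lay at chr7:27205307-27210291 with the same score. In HOXC the first peak, with 3113.68, lay at chr12:54378940-54381408, followed by chr12:54348069-54351711, which was also the widest with 3643 bp, and chr12:54354120-54355860, both at 3100. No peak of HOXB or HOXD exceeded 3100, so those named are the first by position. In HOXB these were chr17:46603843-46605209, chr17:46618480-46622990 and chr17:46627358-46630119, and the widest, of 5201 bp, was chr17:46687447-46692647. In HOXD they were chr2:176957759-176958788, chr2:176961839-176966084, which was the widest with 4246 bp, and chr2:176969079-176972381. In each of the 4 clusters, peaks of at least this score stood in both the low-coordinate and the high-coordinate portion.

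Coverage was uneven along each cluster. The most covered 20 kb of HOXA, chr7:27190000-27210000, was under MeDIP peaks to 88.3%, and that of HOXB, chr17:46682000-46702000, to 75.1%. For HOXD it was chr2:176970000-176990000 with 70.1%, toward the HOXD13 end, and for HOXC chr12:54342000-54362000 with 60.8%, toward the HOXC13 end. The least covered 20 kb of HOXA, HOXC and HOXD still reached 21.5%, 19.8% and 19.6%.

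HOXB differed by a long stretch with no MeDIP peak, from chr17:46724400 to 46795435 (71.0 kb). The longest such stretch was 8.72 kb in HOXA, 10.5 kb in HOXC and 9.67 kb in HOXD. With the longest stretch of each cluster set aside, coverage was 54.7% in HOXA, 47.9% in HOXB, 43.5% in HOXC and 48.3% in HOXD, so that HOXB no longer had the lowest value. The low-coordinate part of HOXB up to its midpoint, toward HOXB1, was covered to 48.5% and the remainder, toward HOXB13, to 15.7%. The MeDIP peaks resumed beyond the empty stretch, with 7 peaks up to the bound of the cluster, the first of them at chr17:46795436-46798175 with a score of 3100.

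Of the 24 ORCA peaks in the HOX clusters, 21 were from mid G1 and 17 of these lay in HOXA. HOXA held 17 mid G1 ORCA peaks, 1 early and 0 late. HOXD held 3 mid, 1 early and 0 late, HOXB 1 mid, 1 early and 0 late, and HOXC none at any stage. Among tiles of the length of HOXD, 874 of 15489 held 3 or more mid peaks. At the length of HOXC, 69.5% of tiles held 0 mid peaks. For late peaks, 92.9% to 94.9% of tiles held 0 at the lengths of the clusters. The early and mid lists were of similar length, with 10666 and 10341 peaks. The late list of 1328 was far shorter and its peaks were wider (median 950 bp, against 593 bp in the early and 624 bp in the mid list). Its deposited name numbers the caller differently from the other ORCA lists, with no explanation in the sources used here, so it may have been called in another way. Its 0 members in the 4 clusters together allow a share of up to 0.226% of that list, in counting error alone. The like count for mid G1 was 21 of 10341 peaks. The mid peaks of HOXA alone made up 0.164% of the mid list (95% Wilson interval 0.103 to 0.263).

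**Figure D4:**
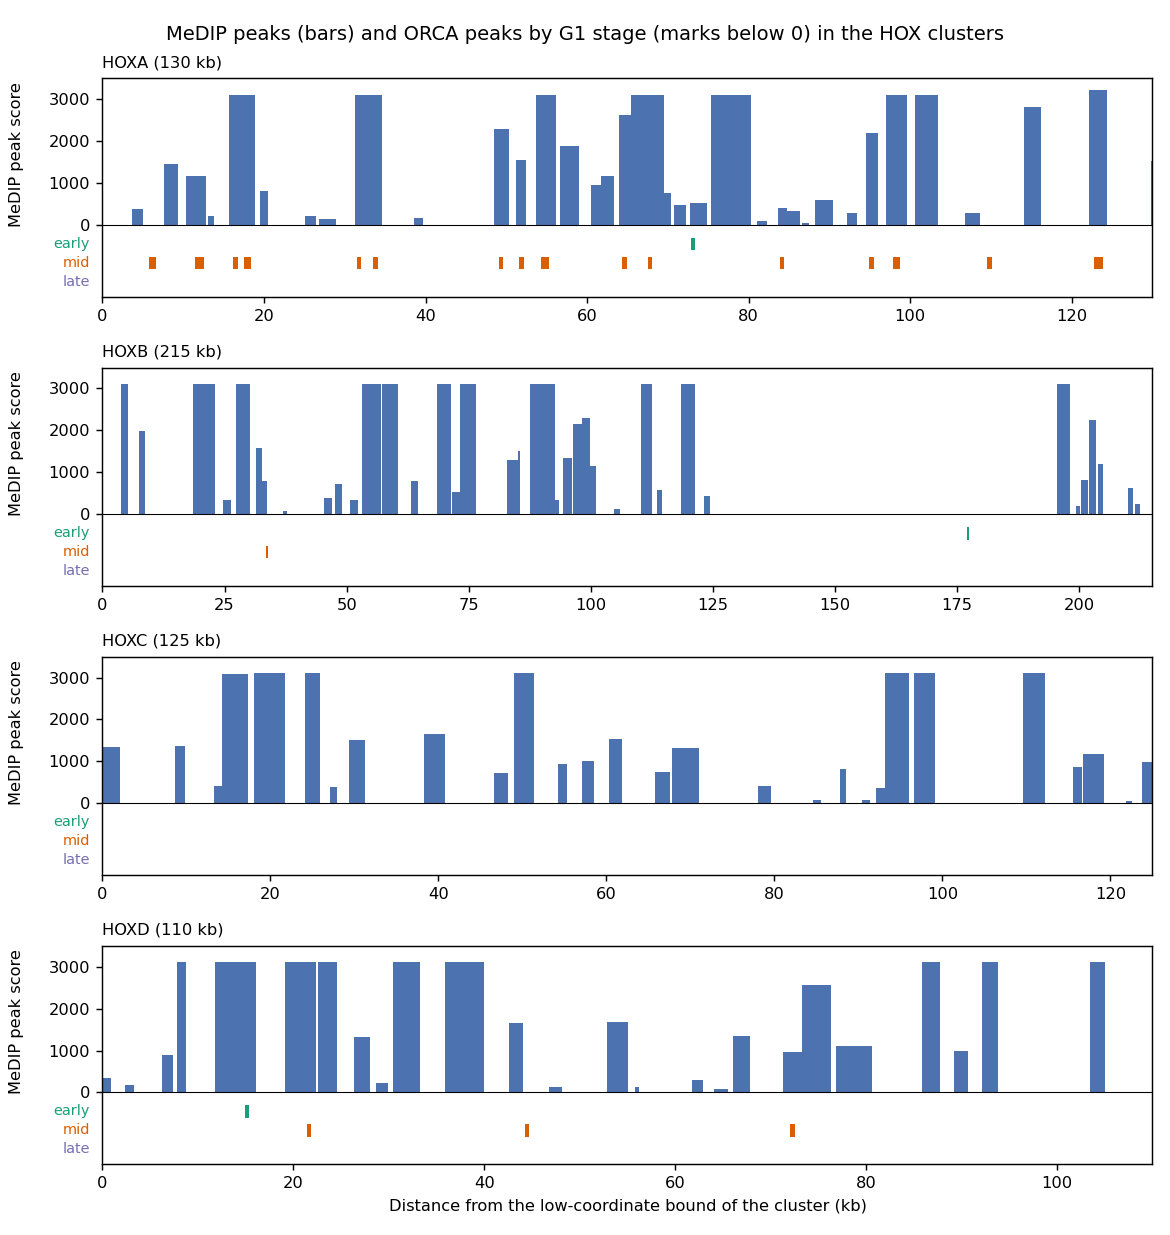
MeDIP peaks (bars, height is the deposited score) and ORCA peaks of early, mid and late G1 (marks below 0, drawn to scale) against the distance in kb from the low-coordinate bound of each HOX cluster. The 17 mid G1 marks run along the whole of HOXA, while HOXB, HOXC and HOXD hold 1, 0 and 3, and HOXB shows the stretch of 71.0 kb with no MeDIP peak.

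The mid G1 peaks were spread along HOXA over 118 kb, from chr7:27135721 to 27253912, with a median of 4217.5 bp between neighbours. In the low-coordinate portion, peaks started at 27135721 (score 82.77), 27141443 (133.97), 27146215 (52.7), 27147570 (82.04), 27161528 (51.5) and 27163459 (105.47). In the middle they started at 27179038 (61.4), 27181576 (65.17), 27184272 (65.87), 27184815 (64.01), 27194367 (53.39) and 27197581 (59.52). Toward the HOXA13 end they started at 27213940 (71.83), 27224884 (83.36), 27227931 (83.54), 27239503 (85.65) and 27252761 (144.25). These scores were ordinary for the mid list, which starts at 50 with a median of 69.95. Their median was 71.83, and 9 of the 17 were at or above the list median. At the length of the late list, that is among the 1328 highest-scoring of the 10341 mid peaks, 1 of the 17 was left. Such a cut removes most of the mid list as well. The peaks were narrow, from 432 to 1152 bp.

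Mid G1 ORCA peaks in HOXA mostly lay under MeDIP peaks: 15 of 17 shared at least 1 bp with a MeDIP peak (88.2%, 95% Wilson interval 65.7 to 96.7), and all 15 lay wholly inside one. Over the whole mid list 48.6% of peaks overlapped a MeDIP peak. In the flanks of HOXA it was 9 of 16. The mid peaks starting at 27135721 and 27239503 had no MeDIP peak. Since 51.0% of HOXA was under MeDIP peaks, an overlap is frequent here for any narrow interval. The overlap fell to 8 of 17 when the widest 5% of peaks of each list were left out.

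Of the 35 MeDIP peaks of HOXA, 12 held a mid ORCA peak and 1 an early one. Over the whole MeDIP list the share with a mid peak was 6.03% and that with an early peak 4.6%. The 13 with an ORCA peak had a median score of 2629.25 and a median width of 2229 bp, and the other 22 had 539.4 and 1419 bp. Of the 8 HOXA peaks with a score of at least 3100, 6 held a mid ORCA peak, among them the highest-scoring one at chr7:27252111-27254339, which enclosed the highest-scoring mid peak. The part of peak width in this difference, or in that between HOXA and the whole list, was not tested.

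The early G1 picture at HOXA was different. The one early peak, chr7:27202842-27203315 with a score of 63.19, lay inside a MeDIP peak of score 520.85. It was 4829 bp from the nearest mid peak, so 0 of the 17 mid peaks shared a base with it. Over the mid list 32.6% of peaks shared a base with an early peak. With only 1 early peak in HOXA few such overlaps were possible, so the 0 adds little to the early count itself. The nearest late peak was 896 kb from any mid peak of HOXA. In the 2 Mb of flanks the early list held 14 peaks and the mid list 16. These mid peaks were not evenly spread: the nearest lay 1.79 kb from the cluster and 8 lay within 250 kb. The adjacent 50 kb held 2 mid and 0 early peaks on the low-coordinate side, and 5 mid and 3 early on the high-coordinate side.

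Among tiles of the length of HOXA, 74 of 13831 held 17 or more mid ORCA peaks (0.535%). These 74 tiles held from 5 to 51 early peaks, with a median of 24.5, and 30 of them lay on chromosome 7 and 25 on chromosome 8. None of the 13831 tiles combined 17 or more mid peaks with at most 1 early peak (0%). These cutoffs are the values of HOXA itself, so the 0 is a description only. The bounds of HOXA were also drawn around genes, whereas the tiles lie on a fixed grid. With its bounds moved outwards by 10 kb, HOXA held 19 mid and 2 early peaks. Among the 12123 tiles with at most 1 early peak, the highest mid count was 8. Whether the difference between early and mid G1 at HOXA lies in the cells or in these 2 libraries and their calling cannot be told apart with 1 sample per stage.

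**Figure D5:**
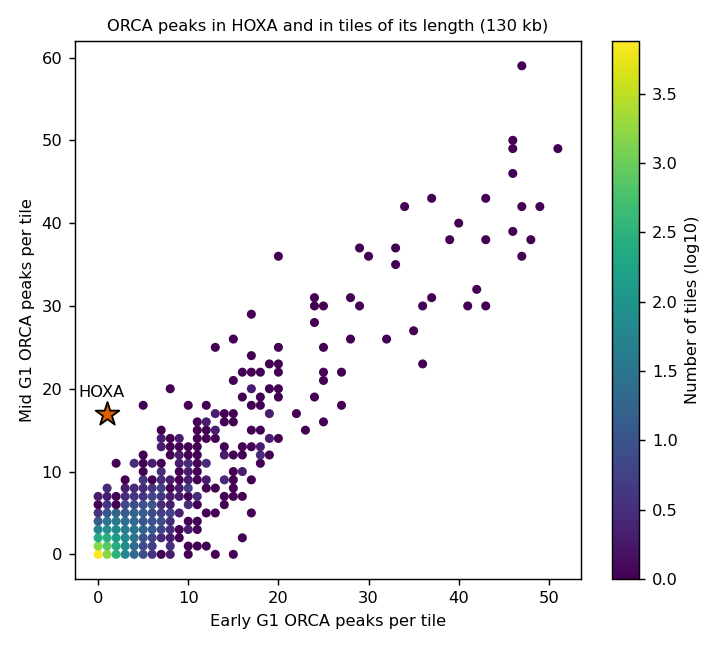
Number of mid G1 ORCA peaks (vertical axis) against early G1 ORCA peaks (horizontal axis) in tiles of 130 kb, with colour for the number of tiles (log10) and a star for HOXA. HOXA has 17 mid and 1 early peak, while every tile with 17 or more mid peaks has at least 5 early ones.

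In the other clusters ORCA peaks were fewer than in HOXA and had low scores. Per length, mid peaks were 13.6 times as dense in HOXD as in its flanks, from only 3 peaks inside and 4 in the flanks. For HOXA the ratio was 16.3, from 17 and 16 peaks. The mid count of HOXD was reached by 874 of 15489 tiles of its length, that of HOXA by 74 of 13831. Of the 3 early peaks in the clusters, 2 overlapped a MeDIP peak, against 35.3% of the early list. HOXD held mid peaks at chr2:176971434-176971879 (score 65.87), chr2:176994253-176994662 (51.92) and chr2:177022000-177022501 (66.08). The first and the last lay inside MeDIP peaks of score 3100 and 961.92, and the second in none. The early peak of HOXD, chr2:176964926-176965384 with a score of 60.69, lay inside the widest MeDIP peak of the cluster. HOXB held a mid peak at chr17:46633591-46633951 (60.86), which shared 43 bp with a MeDIP peak of score 783.33. Its early peak, chr17:46777091-46777520 (55.15), lay within the stretch of 71.0 kb without MeDIP peaks. In HOXC the MeDIP peak that reached over its low-coordinate bound held a mid ORCA peak that itself lay outside the cluster.

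MeDIP peaks in the 4 clusters mostly had no ORCA peak: 18 of 125 overlapped one of any stage (14.4%, 95% Wilson interval 9.31 to 21.6), against 8.04% of the whole MeDIP list and 12 of 196 in the flanks (6.12%). The MeDIP peaks of the clusters were wider (median 1622 bp, against 832 bp over the list), and a wider peak has more room for an overlap. The part of width was not tested. The pooled excess over the list was lost when only peaks at or above the median score of their list were kept: 8 of 112 then had an ORCA peak (7.14%), against 8.10% of the list. In HOXA, with 31 MeDIP peaks kept, 7 of the 9 mid ORCA peaks kept still overlapped one. That is a share of ORCA peaks, not of MeDIP peaks, and HOXA was still covered to 46.8%. It cannot be set against the pooled share, and the like share for HOXA alone was not computed. With peaks within 1 kb counted, the pooled number was 28 of 125 (22.4%), against 11.1% of the list. By cluster, with all peaks and overlap of at least 1 bp, the number was 13 of 35 in HOXA, 1 of 37 in HOXB, 1 of 28 in HOXC and 3 of 25 in HOXD. HOXA thus carried most of these overlaps. In the flanks, too, most of the 12 MeDIP peaks with an ORCA peak lay around HOXA, and none lay around HOXD. The overlaps were therefore not particular to the HOXA cluster but extended to its surroundings. The median MeDIP scores of the other 3 clusters were close to that of HOXA. HOXA had the highest MeDIP coverage (51.0%) and the most MeDIP peaks per 10 kb (2.69). A link between these values and the ORCA overlaps was not tested.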

How the data were processed

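ChIP-seq of ORCA at 3 stages of G1 and MeDIP-seq were used, each as 1 deposited peak list. Reads had been handled with Trimmomatic and Bowtie 0.12.7 on GRCh37, that is hg19, per the submitters' processing notes. Peaks carry names in the style of MACS. Its version, settings and control, and the read depth, are not given in the sources used here. Each score is the authors' deposited value and was used only within a list. The start and end of each peak are other deposited values, counted from 0 in the files and printed from 1. Peaks on chromosomes 1 to 22 and X were kept. Coverage was the percent of bases under merged peaks. Overlap meant at least 1 bp. No test was run, since each group held 1 sample; the precision given is counting error only.

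Named were, per cluster, the 3 highest-scoring MeDIP peaks (ties by position), the widest MeDIP peak, the longest stretch without one and every ORCA peak. The clusters, lists and settings were chosen with earlier results of these data known. Counting was checked on simulated intervals. Promoter sequences came from RefSeq. Alternatives are in the closing section. Python 3.11.15, numpy 2.4.6, pandas 2.3.3, scipy 1.17.1 and matplotlib 3.10.9 were used.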

Additional observations from a re-analysis of the deposited data

How the results depend on the processing

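Of 114 values recomputed under other settings, 98 stayed within 1.5 times of the value reported (for the share with an ORCA peak, within its interval). The 98 include the late ORCA count of 0, which most settings could not change, since they only remove peaks or leave that list as it is. No cluster fell below its flanks. With the widest 5% of peaks of each list left out, MeDIP coverage was 32.8% in HOXA, 17.5% in HOXB, 19.99% in HOXC and 24.8% in HOXD, and the ratio to the flanks was 4.18 for HOXB and 6.07 for HOXC; this setting removes wide peaks by construction. With only the peaks at or above the median score of their list, the HOXB ratio was 10.7, the clusters held 0 early and 9 mid ORCA peaks, and 7.14% of MeDIP peaks had an ORCA peak, against 8.10% of the MeDIP list cut likewise. When peaks within 1 kb counted as shared, these percentages were 22.4% and 11.1%. The HOXD ratio was 82.3 with bounds moved outwards by 10 kb, 27.2 with flanks of 0.5 Mb and 82.2 against the high-coordinate flank alone. With the early and mid lists cut from 10666 and 10341 peaks to the 1328 of the late list, 0 early and 1 mid ORCA peak were left in the clusters. Lists of equal length, single flanks and the joining of peaks with less than 100 bp between them were chosen after seeing the data. No paired analysis was possible because each group held 1 sample, and no replicate could be left out. Depth is unknown, so that a stage without peaks may have binding below the calling threshold.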
